A study of Danio rerio with 36 samples.

Results

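Genes that sense blood flow in endothelium, respond to it or belong to the cerebral cavernous malformation pathway were followed, 9 of the 32520 genes of the adult AngioTag count table. They are the mechanosensitive channel gene piezo1, the flow-induced transcription factor genes klf2a, klf2b and klf4, the receptor gene heg1, and the cerebral cavernous malformation (CCM) genes krit1, ccm2, pdcd10a and pdcd10b. They were listed by name and matched by symbol to Ensembl identifiers. Of them, 7 were matched by their own symbol. The other 2, the zebrafish copies of PDCD10, are carried by the identifiers ENSDARG00000012591 and ENSDARG00000035054, both named PDCD10 in the symbol table, so they are given by identifier and neither is called a or b.

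Translating ribosome affinity purification (TRAP) was applied to adult zebrafish of the AngioTag line Tg(kdrl:egfp-2a-rpl10a3xHA)y530, which all groups carry. In this line the kdrl promoter, active in endothelium, drives EGFP and a ribosomal protein with an HA tag, so that an antibody to HA pulls down ribosomes of kdrl-expressing cells with the mRNA they hold. The groups used here are the pulldowns of skin, muscle and whole fish and the inputs of the same tissues, which are RNA of the whole lysate, with 3 libraries in each group. Each replicate pooled organs or whole bodies of 4 fish, and sex and exact age are not given in the labels. By the methods of the study, organs were dissected and used fresh or after freezing, while whole bodies were frozen and ground to powder. The labels call the replicates biological replicates. Libraries of liver, heart and brain were left aside and are not analysed here.

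In endothelial cells, fluid shear is sensed at the membrane by channels such as Piezo1 and raises the transcription factors Klf2 and Klf4, which hold vessels in a quiescent state. Heg1 is a transmembrane receptor that binds Krit1, and Krit1, Ccm2 and Pdcd10 form the CCM complex, which restrains the kinase MEKK3 and, through MEK5 and ERK5, the KLF genes. Human mutations in KRIT1, CCM2 or PDCD10 cause cavernous malformations, which are clusters of dilated, leaky capillaries.

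Total counts ranged from 9202302 to 26255588 per library. The most abundant gene held 53.8% to 76.2% of all counts in whole fish pulldowns, against at most 27.6% in the other groups, and the spread between replicates was larger in whole fish (biological coefficient of variation 0.849) than in skin (0.273) or muscle (0.327). The endothelial genes kdrl and cdh5 were enriched in every pulldown. For kdrl the log2 fold change was 4.47 in skin, 5.43 in muscle and 3.34 in whole fish, and that of cdh5 was 5.11, 6.33 and 3.90 in the same tissues. Of 22 endothelial marker genes in the table, 19 were enriched in skin and 17 in whole fish, and in muscle 20 of the 21 tested were. Inputs carried the markers of their tissue: the summed level of 15 epidermal genes was 40259 to 54235 CPM in skin inputs, and that of 14 muscle fibre genes was 284828 to 411906 CPM in muscle inputs. Summed levels here and below are on a CPM scale set by TMM over all 18 libraries, and are not shares of the reads. Skin replicate 2 was assigned by elimination, because its column names use a different tissue letter. Enrichment over input in skin without both its libraries is given where it differs. Comparisons of skin with another tissue were not refitted without both, only without each single library.

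A gene was called enriched or depleted in a pulldown at an edgeR adjusted p under 0.05, one-sided, with a log2 fold change of at least 1.2 in that direction. In muscle, 6 of the 9 genes were enriched (piezo1, klf2a, klf2b, klf4, heg1 and krit1), where 22.8% of all tested genes were, and none was depleted, where 21% of all tested genes were. In skin 2 of the 9, piezo1 and heg1, were enriched, close to the share of 21.5% of all genes, and none was depleted, against 18.2%. In whole fish piezo1 and heg1 were enriched, against 11.3% of all genes, and ccm2 and ENSDARG00000035054 were depleted, against 15.5%. These fits did not use the pairing of pulldown and input by replicate number. With that number as a block, piezo1 alone kept its call in whole fish. The edgeR adjusted p was then 0.101 for heg1, 0.0921 for ccm2 and 0.0732 for ENSDARG00000035054. Every pulldown library lay above every input library for 7 genes in muscle (37% of all genes), for 3 in skin (32.6%) and for 2 in whole fish (17.7%). Every pulldown library lay below every input library for none of the 9 in muscle (26.2% of all genes), for the 2 PDCD10 genes in skin (33.3%) and for ccm2 and ENSDARG00000035054 in whole fish (33.2%). Without the minimum fold and tested two-sided, 3 genes were enriched and 2 depleted in skin, where 30.5% and 28.8% of all genes were, 7 and none in muscle, where 29.3% and 25.5% were, and 2 and 2 in whole fish, where 12.1% and 15.1% were. The calls are relative to TMM scaling, under which 3694 genes were enriched and 3121 depleted in skin, while muscle had 3385 and 3120 and whole fish 1916 and 2615. With library size alone, 7094 of 17153 tested genes were enriched and 783 depleted in skin. These counts were 9249 of 14849 and 485 in muscle, and 589 of 16923 and 4049 in whole fish. Of the 9 genes, 3, 9 and 1 were enriched in the same order of tissues. These are values of bulk RNA, in which fewer cells of a type and less RNA per cell cannot be told apart. The pulldown is mRNA on ribosomes and the input is RNA of the lysate, so ribosome loading also enters their ratio. Its part was not tested, and the groups hold no pulldown from all cell types.

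**Figure D1:**
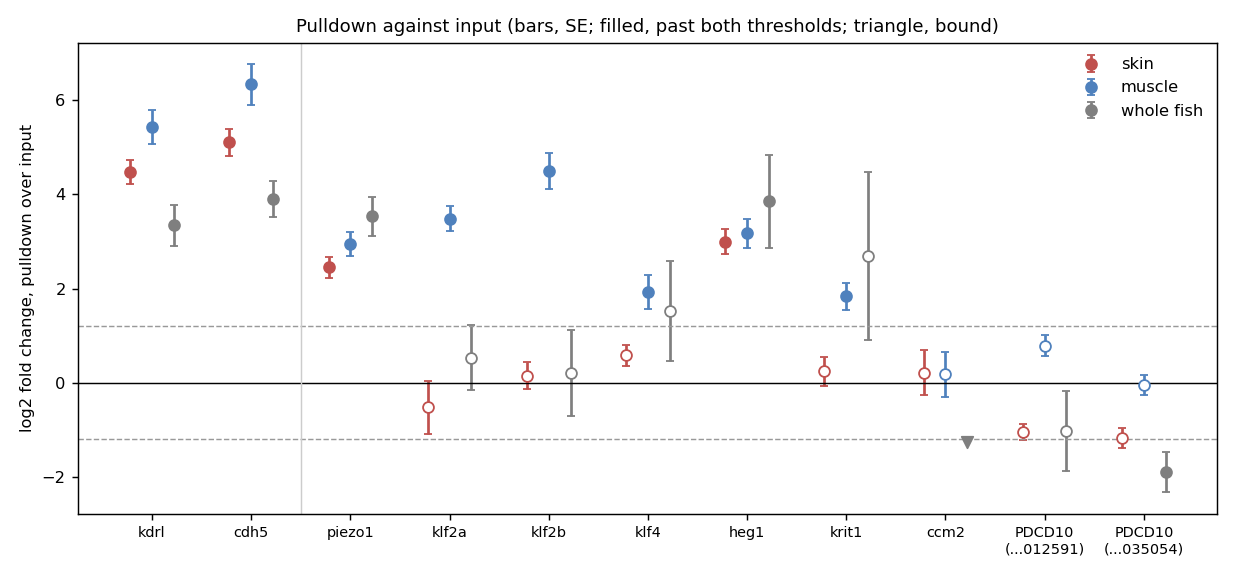
Log2 fold change of pulldown over input (vertical axis) for the endothelial genes kdrl and cdh5 and for the 9 genes, in skin (red), muscle (blue) and whole fish (gray), with bars for the standard error of the fit on 6 libraries; dashed lines mark the minimum log2 fold change of 1.2 and filled points passed both thresholds. The triangle for ccm2 in whole fish is a bound, since all 3 pulldown libraries were at 0 counts. piezo1 and heg1 are filled in all 3 tissues, and klf2a and klf2b only in muscle.

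piezo1 encodes a stretch-activated cation channel of the plasma membrane. Levels are given in replicate order as CPM (read counts scaled to the library size after TMM), set within a tissue. Its level in skin was 115, 102 and 128 CPM in the pulldowns, against 25.8, 20.3 and 19.7 CPM in the inputs. In muscle it was 27, 36.1 and 37.9 CPM in the pulldowns, against 4.57, 3.24 and 3.76 CPM in the inputs. The whole fish had 85.4, 44.8 and 78.4 CPM in the pulldowns, against 5.88, 7.56 and 5.93 CPM in the inputs. In all 3 tissues each pulldown library stood above each input library. Its log2 fold change was 2.45 ± 0.21 (SE) in skin, with an edgeR adjusted p of 8.75e-06, 2.94 ± 0.25 in muscle, with an adjusted p of 9.26e-06, and 3.53 ± 0.41 in whole fish, with an adjusted p of 0.00126. Without both libraries of whole fish replicate 3 the whole fish value was 3.24, with an adjusted p of 0.0585.

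klf2a encodes the transcription factor whose promoter is the usual reporter of blood flow in zebrafish. In muscle its level was 438, 405 and 426 CPM in the pulldowns, against 41.1, 31.7 and 28.0 CPM in the inputs. In skin it was 409, 147 and 137 CPM in the pulldowns, against 678, 178 and 168 CPM in the inputs. The whole fish had 77.0, 44.7 and 58.4 CPM in the pulldowns, against 81.8, 42.6 and 9.98 CPM in the inputs. The muscle pulldowns were close to each other and 10.7, 12.8 and 15.2 times the muscle input of the same replicate, while in skin and the whole fish the groups overlapped. Skin pulldown replicates 2 and 3 were below all skin inputs. Skin replicate 1 was high in both fractions, and within each skin replicate the ratio of pulldown to input was 0.603, 0.823 and 0.813. Enrichment was measured as a log2 fold change of 3.49 ± 0.27 in muscle, with an edgeR adjusted p of 6.66e-06. It was -0.52 ± 0.57 in skin, with an adjusted p of 0.452 for depletion, and 0.53 ± 0.69 in whole fish, with an adjusted p of 0.649 for enrichment.

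klf2b encodes the second zebrafish Klf2. Muscle pulldowns had 202, 137 and 342 CPM, against 8.89, 7.12 and 10.8 CPM in the inputs. Skin pulldowns had 85.1, 68.0 and 65.6 CPM, against 99.7, 44.6 and 60.8 CPM in the inputs. In whole fish the pulldowns had 2.00, 23.0 and 4.55 CPM, against 8.95, 8.36 and 10.1 CPM in the inputs. The separation in muscle was complete, the skin inputs spanned the skin pulldowns, and in whole fish pulldown replicate 2 lay above all inputs and the other pulldowns below them. For klf2b the log2 fold change was 4.49 ± 0.39 in muscle, with an edgeR adjusted p of 1.00e-05, 0.15 ± 0.29 in skin, with an adjusted p of 0.662, and 0.21 ± 0.91 in whole fish, with an adjusted p of 0.919. Without both libraries of skin replicate 2 the skin value was -0.06.

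klf4, a related factor that also responds to flow and has a role in epithelia, was enriched in muscle, at 8.96, 4.70 and 10.3 CPM in the pulldowns, against 1.91, 1.99 and 1.69 CPM in the inputs. In skin it was at 36.0, 38.9 and 29.7 CPM in the pulldowns, against 26.6, 17.5 and 28.7 CPM in the inputs. The whole fish had 8.96, 0.438 and 5.76 CPM in the pulldowns, against 2.23, 1.76 and 1.67 CPM in the inputs. Pulldowns and inputs did not overlap in muscle or in skin, where they were only 1.04-fold apart in replicate 3, and whole fish pulldown replicate 2 was below all inputs. In muscle the log2 fold change was 1.93 ± 0.35, with an edgeR adjusted p of 0.001. In skin it was 0.58 ± 0.23, with an adjusted p of 0.0434 and a fold below the minimum, and in whole fish 1.52 ± 1.07, with an adjusted p of 0.368. Without whole fish pulldown replicate 2 the whole fish value was 1.94, with an adjusted p of 0.0413.

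**Figure D2:**
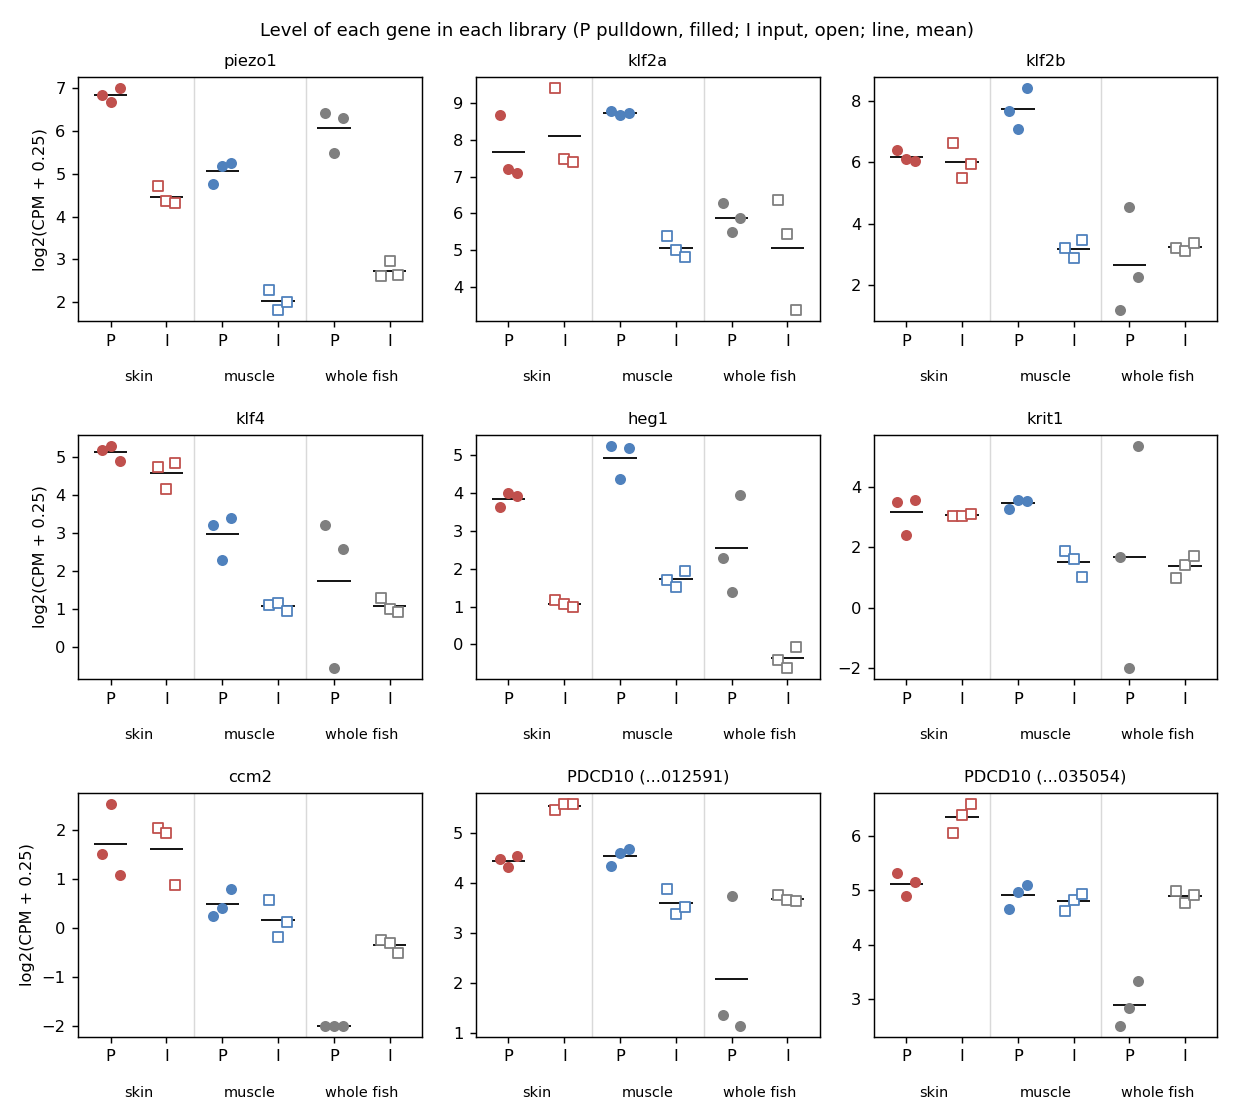
Log2 of the level plus 0.25 CPM (vertical axis, scaled within each tissue) in each of 18 libraries for the 9 genes, with the 3 pulldown libraries (P, filled circles) left of the 3 inputs (I, open squares) in skin, muscle and whole fish and a line at the mean. The muscle pulldowns of klf2a and klf2b lie far above the muscle inputs, in skin the ranges of pulldowns and inputs overlap for both genes, and the whole fish pulldowns of krit1 spread from 0 to 40.5 CPM.

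heg1, the receptor that anchors Krit1 at endothelial junctions, was enriched in each tissue. Skin pulldowns had 12, 15.7 and 14.8 CPM, against 1.99, 1.84 and 1.73 CPM in the inputs. Muscle pulldowns had 37.6, 20.3 and 36.4 CPM, against 3.03, 2.62 and 3.60 CPM in the inputs. Whole fish pulldowns had 4.64, 2.36 and 15.0 CPM, against 0.504, 0.400 and 0.710 CPM in the inputs. No pulldown library overlapped an input library of its tissue. heg1 had a log2 fold change of 2.99 ± 0.27 in skin, with an edgeR adjusted p of 9.09e-06, 3.17 ± 0.31 in muscle, with an adjusted p of 1.87e-05, and 3.85 ± 0.98 in whole fish, with an adjusted p of 0.0303. The whole fish call depended on its libraries. It was lost without input replicate 1, 2 or 3 (adjusted p of 0.203, 0.163 and 0.142), and library size scaling gave 3.19, with an adjusted p of 0.179. With the replicate number as a block it was 3.48, with an adjusted p of 0.101, and without both libraries of replicate 2 or of replicate 3 it was 4.07 and 2.90, with adjusted p of 0.0672 and 0.168.

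krit1, the scaffold that joins Heg1 to the CCM complex, was enriched in muscle, at 9.41, 11.4 and 11.3 CPM in the pulldowns, against 3.40, 2.83 and 1.76 CPM in the inputs. In skin the pulldowns had 11.1, 5.07 and 11.4 CPM, against 7.95, 7.87 and 8.38 CPM in the inputs. The whole fish pulldowns had 2.96, 0 and 40.5 CPM, from 37, 0 and 702 counts, against 1.72, 2.40 and 2.99 CPM in the inputs. Muscle pulldowns all exceeded the inputs, skin pulldown replicate 2 was below all skin inputs, and the whole fish pulldowns held both the lowest and the highest krit1 level of the 18 libraries. krit1 had a log2 fold change of 1.83 ± 0.29 in muscle, with an edgeR adjusted p of 0.000443, 0.25 ± 0.31 in skin, with an adjusted p of 0.498, and 2.69 ± 1.78 in whole fish, with an adjusted p of 0.339. In 1 fit of all 18 libraries, which shares the spread of the whole fish, the muscle value was 1.78, with an adjusted p of 0.268. Without whole fish pulldown replicate 3 the whole fish value was -0.72.

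ccm2, the adaptor through which the complex binds MEKK3, was a low gene, with 6 to 76 counts in the skin and muscle libraries. Skin pulldowns had 2.60, 5.58 and 1.88 CPM, against 3.87, 3.62 and 1.59 CPM in the inputs, and muscle pulldowns had 0.937, 1.08 and 1.49 CPM, against 1.24, 0.628 and 0.844 CPM in the inputs. Both sets overlapped, with log2 fold changes of 0.22 ± 0.49 in skin (edgeR adjusted p of 0.701) and 0.18 ± 0.48 in muscle (adjusted p of 0.746). Without both libraries of skin replicate 2 the skin value was -0.24. The whole fish pulldowns held 0 counts in each of 3 libraries, against 14, 14 and 9 counts in the inputs. With a floor of 3 counts per library, ccm2 was at least 2.37-fold lower in whole fish pulldowns than in the inputs, with an edgeR adjusted p of 0.0114 for depletion, or 0.0921 under a replicate block. At this depth a level below the floor, 0.225 CPM on average, was not detectable. The whole fish pulldowns had 15203 to 17439 genes with a count, against 19568 to 24314 in the other groups, and the part of this in the ccm2 result was not tested. In the RefSeq annotation of GRCz12tu, ccm2 is the only 1 of the 9 genes whose span overlaps another gene, a long noncoding RNA gene. Spans were compared without regard to strand or exons, and the libraries carry no strand information. The counts were made on GRCz11 with an Ensembl annotation, in which overlap was not examined for any of the genes.

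The PDCD10 genes encode the small partner of Ccm2 that binds germinal centre kinases. ENSDARG00000012591 had 22.2, 19.8 and 23.0 CPM in skin pulldowns, against 44.2, 47.7 and 48.1 CPM in skin inputs. In muscle it had 20.2, 24.0 and 25.6 CPM in the pulldowns, against 14.5, 10.3 and 11.2 CPM in the inputs. Whole fish pulldowns had 2.32, 13.1 and 1.96 CPM, against 13.4, 12.4 and 12.2 CPM in the inputs. The pulldowns were below the inputs in skin and above them in muscle, without overlap in either, and in whole fish only replicate 2 reached the level of the inputs. Its log2 fold change was -1.05 ± 0.18 in skin, with an edgeR adjusted p of 0.00054 for depletion, and 0.78 ± 0.22 in muscle, with an adjusted p of 0.012 for enrichment, both under the minimum fold. In whole fish it was -1.02 ± 0.85, with an adjusted p of 0.394, and without pulldown replicate 2 it was -2.58, with an adjusted p of 0.0126.

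ENSDARG00000035054 had 39.7, 29.4 and 35.0 CPM in skin pulldowns, against 66.3, 82.8 and 95.9 CPM in skin inputs. In muscle it had 24.8, 30.9 and 34.0 CPM in the pulldowns, against 24.4, 27.9 and 30.3 CPM in the inputs. Whole fish pulldowns had 5.44, 6.92 and 9.80 CPM, against 31.6, 27 and 29.6 CPM in the inputs. The pulldowns lay below the inputs in skin and in whole fish. In muscle the ranges overlapped, replicates 2 and 3 of the pulldown lay above all inputs, and the ratio to the input of the same replicate was 1.02, 1.11 and 1.12. In skin the log2 fold change was -1.17 ± 0.21, with an edgeR adjusted p of 0.000766 and a fold just short of the minimum, which it passed with DESeq2, at -1.22, and without skin pulldown replicate 1 (-1.31) or 3 (-1.23) or skin input replicate 1 (-1.32) or 2 (-1.21). It was -0.05 ± 0.22 in muscle, with an adjusted p of 0.883, or 0.12 without the filter on low counts, which the CPM do not use. In whole fish it was -1.89 ± 0.43, with an adjusted p of 0.0166. Under a replicate block the whole fish value was -1.93, with an adjusted p of 0.0732, and without input replicate 1, 2 or 3 the adjusted p was 0.0661, 0.0626 and 0.0807. Without both libraries of whole fish replicate 2 it was 0.0523.

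Enrichment over input was then compared between tissues as an interaction term. For skin minus muscle, 6 of the 9 genes were lower in skin, where 12.4% of all 18669 genes tested were lower, and none was higher, where 11.4% were, 23.8% in either direction. klf2b differed by -4.30 ± 0.51 (SE), with an edgeR adjusted p of 0.000102, and klf2a by -3.96 ± 0.73, with an adjusted p of 0.00163. The ENSDARG00000012591 copy of PDCD10 differed by -1.78 ± 0.28, with an adjusted p of 0.00062, its log2 fold change being below 0 in skin and above 0 in muscle. The other PDCD10 gene, ENSDARG00000035054, differed by -1.07 ± 0.30 (adjusted p of 0.019), krit1 by -1.53 ± 0.45 (adjusted p of 0.0237) and klf4 by -1.30 ± 0.42 (adjusted p of 0.0338). The median difference of all genes tested was 0.24. Of the 22 endothelial markers, 6 were lower in skin and none higher, with a median of -0.78. kdrl and cdh5 were not called, at -0.91 ± 0.41 (edgeR adjusted p of 0.116) and -1.18 ± 0.47 (adjusted p of 0.0791). Of 11 mural and fibroblast genes, 7 were higher in skin and none lower, with a median of 1.3, and of 14 muscle fibre genes 9 and none, with a median of 2.35. The part of these differences in the values of the 9 genes was not tested.

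The other 3 genes were not called. For piezo1 the difference was -0.45, with a 95% interval of -1.19 to 0.30 and an edgeR adjusted p of 0.336. For heg1 it was -0.14, with an interval of -1.07 to 0.79 and an adjusted p of 0.83, and for ccm2 it was 0.08, with an interval of -1.56 to 1.71 and an adjusted p of 0.955. These intervals leave room for differences of more than 2-fold, so equal enrichment was not shown. With library size alone, piezo1 differed by -1.33, with an adjusted p of 0.0118. klf2a, klf2b, krit1 and both PDCD10 genes were called in each of 12 fits that left out a library, and klf4, at -1.64 to -1.11, lost its call in 6 of them. These were the fits without skin pulldown replicate 1 or 3, skin input replicate 3, muscle pulldown replicate 1 or 3 and muscle input replicate 3, with adjusted p of 0.0530, 0.0648, 0.0562, 0.0566, 0.0734 and 0.0552. In 1 fit of all 18 libraries, only klf2a and klf2b were called.

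**Figure D3:**
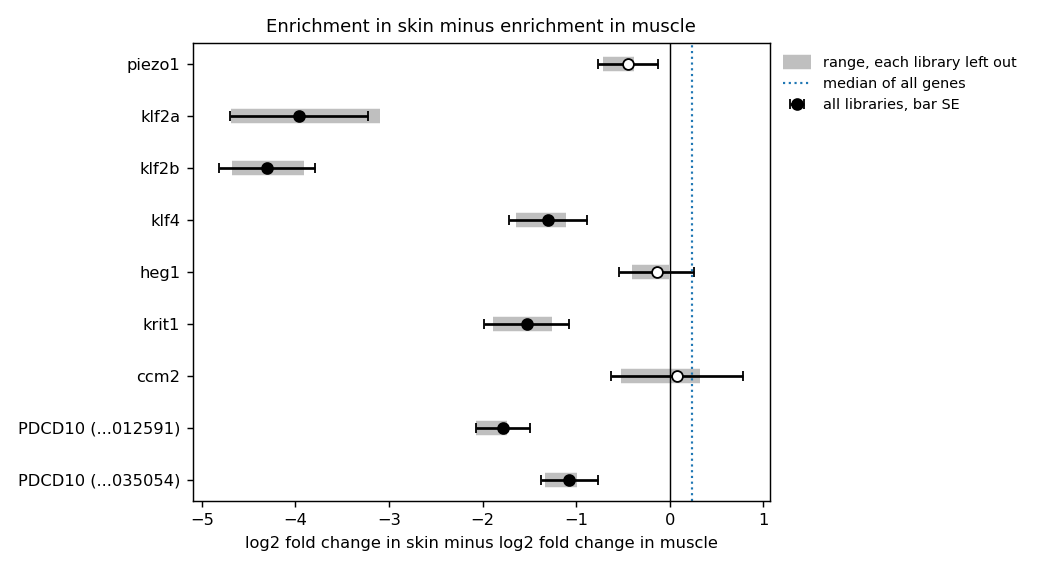
Difference in enrichment, skin minus muscle, as log2 (horizontal axis) for each of the 9 genes, with the standard error of the fit on 12 libraries as a bar and the range over 12 fits that each left out a library as a gray band; filled points had an adjusted p under 0.05, and the dotted line is the median of all genes. klf2a and klf2b lie near -4, and piezo1, heg1 and ccm2 have open points near 0.

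Set against the whole fish, muscle enrichment was higher for 4 of the 9 genes, where 12.4% of all genes were higher, and lower for none, where 5.26% were, 17.6% in either direction. The difference was 4.47 ± 0.98 for klf2b (edgeR adjusted p of 0.0103), 3.08 ± 0.79 for klf2a (adjusted p of 0.0202) and 1.94 ± 0.48 for ENSDARG00000035054 (adjusted p of 0.0176). The fourth gene was ccm2, with an adjusted p of 0.00868 and no fold, since the whole fish pulldown was at 0. The median difference of all genes in muscle minus whole fish was 0.28. The references were also more enriched in muscle, kdrl at a log2 fold change of 5.43 against 3.34 in whole fish, and cdh5 at 6.33 against 3.90. The part of this in the differences of the 9 genes was not tested. With the replicate number as a block, klf2a differed by 2.73, with an adjusted p of 0.0529, and ccm2 had an adjusted p of 0.0683. The klf2a call was also lost without muscle pulldown replicate 1 (adjusted p of 0.0519) or 3 (just above the threshold), muscle input replicate 3 (0.0530) or whole fish input replicate 1 (0.0543), and that of ENSDARG00000035054 without whole fish input replicate 1 (0.0518). Between skin and the whole fish only ccm2 was called, with higher enrichment in skin (adjusted p of 0.00791), where 17.4% of all genes were higher and 4.42% lower, 21.8% in either direction. The median of all genes in skin minus whole fish was 0.76. Genes not called had 95% intervals as wide as -6.34 to 1.99 (krit1) and -3.09 to 1.77 (klf2a), so equal enrichment was not shown.

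Levels were next compared on a CPM scale set over all 18 libraries. klf2a averaged 142 ± 97.3 CPM in the skin pulldown, 488 ± 19.5 in the muscle pulldown and 72.0 ± 19.6 in the pulldown of whole fish (SD, n = 3 each), and in the inputs of the same tissues 210.1 ± 184, 44.1 ± 9.26 and 66.8 ± 54.5 CPM. The pulldowns ran from muscle through skin to the whole fish, and the inputs from skin through the whole fish to muscle. The skin and whole fish pulldowns lay within their spread of each other. The inputs of skin, at 422, 107 and 101 CPM, were each above those of muscle, at 54.6, 40.6 and 37.1 CPM, while those of the whole fish, at 123, 62.0 and 14.8 CPM, overlapped both. klf2b averaged 44.8 ± 7.11 CPM in the skin pulldown, 263 ± 123 in muscle and 11.5 ± 12.9 in whole fish, and 41.8 ± 18.2, 11.8 ± 2.61 and 13.6 ± 1.42 CPM in the inputs. The muscle pulldown stood highest for both genes and the skin input was the highest input, while the whole fish and muscle inputs of klf2b differed by less than their spread.

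In a fit of the 6 pulldown libraries of both tissues, skin over muscle, 5 of the 9 genes were lower in skin, where 21.3% of all genes were, and 2 were higher, where 27% were, 48.3% in either direction. heg1 was lower by a log2 difference of -1.94 ± 0.28 (edgeR adjusted p of 0.000214), klf2b of -2.43 ± 0.35 (adjusted p of 0.000194), klf2a of -1.66 ± 0.42 (adjusted p of 0.00641), krit1 of -1.01 ± 0.33 (adjusted p of 0.0244) and ENSDARG00000012591 of -0.89 ± 0.22 (adjusted p of 0.00621). Without skin pulldown replicate 2, krit1 was at -0.71, with an adjusted p of 0.0687. klf4 and piezo1 went the other way. klf4 was higher in the skin pulldown by 1.34 ± 0.30 (adjusted p of 0.00346), at 21.4 ± 2.33 CPM in skin and 9.22 ± 3.40 in muscle, and piezo1 by 0.99 ± 0.24 (adjusted p of 0.00522), at 71.0 ± 10.2 CPM in skin and 38.9 ± 6.87 in muscle. The skin input stood at 14.8 ± 3.71 CPM for klf4 and 13.4 ± 2.35 for piezo1, against 2.44 ± 0.178 and 5.07 ± 0.965 CPM in the muscle input, and the inputs were not tested against each other. Levels of the other members averaged 8.67 ± 1.03 CPM in skin and 36.2 ± 11.2 in muscle for heg1, 5.70 ± 2.35 and 12.4 ± 1.34 for krit1, 2.04 ± 1.12 and 1.35 ± 0.340 for ccm2, 13.3 ± 1.42 and 26.8 ± 3.33 for ENSDARG00000012591, and 21.4 ± 3.71 and 34.5 ± 5.53 for ENSDARG00000035054. For ccm2 the difference was 0.73, with a 95% interval of -0.68 to 2.14, and for ENSDARG00000035054 it was -0.57, with an interval of -1.22 to 0.07 (edgeR adjusted p of 0.257 and 0.0597, and 0.0430 for the PDCD10 gene without muscle pulldown replicate 1). With library size alone krit1 and ENSDARG00000012591 were no longer called, with adjusted p of 0.185 and 0.122. The fit of all 18 libraries kept heg1, klf2b and piezo1 and lost klf2a (adjusted p of 0.059), klf4 (0.165), krit1 (0.484) and ENSDARG00000012591 (0.154). The endothelial references were lower in the skin pulldown too. kdrl averaged 158 ± 31.4 CPM in skin and 926 ± 325 in muscle, and cdh5 163 ± 35.7 and 1607 ± 597. Summed endothelial markers were at 922 to 1222 CPM in skin pulldowns and 4892 to 7324 in muscle pulldowns. The part of this in the levels of the 9 genes was not tested.

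Against the whole fish pulldown, the muscle pulldown was higher for 4 genes, where 13.1% of all genes were, and lower for 1, where 11.8% were, 24.8% in either direction. klf2a was higher by 2.56 ± 0.34 (edgeR adjusted p of 0.00345), klf2b by 4.34 ± 0.90 (adjusted p of 0.0142), ENSDARG00000035054 by 1.77 ± 0.51 (adjusted p of 0.0398), and ccm2 with an adjusted p of 0.0142 and no fold. piezo1 was lower by -1.31 ± 0.41 (adjusted p of 0.0496), at 38.9 ± 6.87 CPM in muscle and 83.9 ± 28.5 in whole fish, and the difference was 0.02 with library size alone. That call was lost with the replicate number as a block (-1.25, adjusted p of 0.114), as were those of ENSDARG00000035054 (1.80, adjusted p of 0.114) and ccm2 (adjusted p of 0.0954). Between pulldowns this block joined libraries of the same number from different tissues, for which no pairing is given. A call lost with it therefore says nothing about a pairing. Only klf2a kept its call without each muscle pulldown library. There the adjusted p was 0.0530 to 0.0640 for klf2b, 0.0580 to 0.0636 for ccm2, 0.122 to 0.175 for piezo1 and 0.133 to 0.169 for ENSDARG00000035054. The piezo1 call was also lost without whole fish pulldown replicate 1 (0.0965) or 3 (0.0905), and that of ENSDARG00000035054 without replicate 1 (0.0509). The skin pulldown was called higher for ccm2 only (adjusted p of 0.0139), where 14.6% of all genes were, and lower for none, where 11.7% were, 26.4% in either direction. For ccm2 the adjusted p was 0.0931 with the block and 0.0513 to 0.0569 without each skin pulldown library. Genes not called had 95% intervals as wide as -6.49 to 2.80 (krit1), so equal levels were not shown. In the whole fish pulldown kdrl averaged 78.8 ± 38.0 CPM and cdh5 123 ± 34.6, below 926 ± 325 and 1607 ± 597 in the muscle pulldown. The part of this in the levels of the listed genes was not tested.

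Paralogs were compared by the log2 ratio of their counts within a library, which needs no scaling. klf2a over klf2b was 1.11, 1.56 and 0.31 in muscle pulldowns, against 2.20, 2.15 and 1.37 in muscle inputs, a difference of -0.91 with an exact two-sided permutation p of 0.2. In skin the difference was -0.60 (exact p of 0.3) and in whole fish 1.45 (exact p of 0.4), where 3 against 3 libraries cannot give a p below 0.1. Within replicate pairs the difference was -1.09, -0.58 and -1.06 in muscle and -0.50, -0.89 and -0.41 in skin, below 0 in each, and 3 pairs cannot give an exact p below 0.25. ENSDARG00000012591 over ENSDARG00000035054 was -0.30, -0.37 and -0.41 in muscle pulldowns, against -0.75, -1.44 and -1.43 in muscle inputs. These did not overlap, and the difference of 0.85 had an exact p of 0.1, the smallest possible. It was 0.12 in skin (exact p of 0.6) and 0.34 in whole fish (exact p of 0.8).

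The partners of these genes were read from lists of known genes, with TMM scaling alone. For each list, the shares of all genes enriched and depleted were 21.5% and 18.2% for skin, 22.8% and 21% for muscle, and 11.3% and 15.5% for whole fish. In the skin minus muscle comparison, 12.4% of all genes were lower and 11.4% higher, with a median of 0.24. Of 22 listed CCM partners and genes of the MEKK3-MEK5-ERK5 pathway in the table, 10 of 19 tested were enriched and 1 depleted in skin, 14 of 19 and 1 in muscle, and 10 of 20 and 1 in whole fish. Their median log2 fold change was 1.36 in skin, 1.54 in muscle and 2.06 in whole fish, against 0.04, 0.07 and -0.09 for all genes in the same tissues. ccm2l, a paralog of ccm2, was enriched at 4.03 ± 0.31 in skin, 4.26 ± 0.30 in muscle and 3.23 ± 0.95 in whole fish. The moesin gene msna was enriched at 2.25 ± 0.28, 2.86 ± 0.43 and 4.80 ± 0.33 in the same 3 tissues. map3k3, which encodes MEKK3 and was picked after its values were seen, was enriched at 1.40 ± 0.36, 2.88 ± 0.28 and 3.03 ± 0.77. For skin minus muscle, 6 of 19 listed genes were lower and 1 was higher, with a median of -0.57.

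Other KLF genes were mixed. Of 15 in the table, 5 were enriched and 3 depleted in skin, 6 of 13 tested and 3 in muscle, and 3 of 13 tested and 2 in whole fish, with medians of -0.08, 0.28 and -0.05. klf7b was enriched at 2.11 ± 0.27 in skin, 3.26 ± 0.24 in muscle and 2.40 ± 0.38 in whole fish, klf6a at 1.25 ± 0.25, 3.68 ± 0.38 and 2.61 ± 0.25, and klf13 at 1.97 ± 0.23, 1.33 ± 0.46 and 2.50 ± 0.44. klf15, which is known as a metabolic and muscle gene, was depleted at -1.53 ± 0.23 in skin, -2.72 ± 0.27 in muscle and -5.03 ± 1.44 in whole fish. For skin minus muscle, 4 of the 15 were lower and 2 higher, with a median of -0.73.

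Of 13 mechanosensor genes other than piezo1 in the table, 5 of 10 tested were enriched and 1 depleted in skin, 4 of 10 and 1 in muscle, and 2 of 8 and none in whole fish, with medians of 1.12, 0.74 and 2.20. The endothelial references kdrl and cdh5 are on this list, count among the enriched genes in all 3 tissues, and were the only 2 enriched in whole fish. Besides kdrl and cdh5, the calcium channel gene trpv4 was enriched at 1.84 ± 0.33 in skin and 1.76 ± 0.39 in muscle, and had 1.86 ± 1.29 in whole fish, with an edgeR adjusted p of 0.363. The potassium channel gene kcnj2a was depleted at -2.10 ± 0.71 in skin and -1.59 ± 0.45 in muscle. For skin minus muscle, 1 of 11 was lower and none higher, with a median of -0.11.

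Of 35 genes listed as responsive to flow or to KLF2 in vertebrate endothelium, 14 of 32 tested were enriched and 1 depleted in skin, 18 of 32 and 2 in muscle, and 8 of 30 and 2 in whole fish, with medians of 1.14, 1.61 and 1.00. The list does not record whether a gene rises or falls with flow or KLF2, so these values do not measure a flow response. The Notch receptor gene notch1b was enriched at 3.06 ± 0.25 in skin, 4.51 ± 0.26 in muscle and 6.44 ± 0.43 in whole fish. The adhesion molecule gene vcam1a (4.25 ± 0.29, 3.69 ± 0.25 and 5.77 ± 0.78) and the apelin receptor genes aplnrb (3.98 ± 0.34, 3.81 ± 0.36 and 4.29 ± 0.73) and aplnra, which is also on the endothelial marker list (1.98 ± 0.41, 2.51 ± 0.33 and 3.13 ± 0.88) were enriched in all 3 tissues too. For skin minus muscle, 6 of 34 were lower and 2 higher, with a median of -0.38. Among the lower genes, picked after their values were seen, were nfe2l2a, the gene of the antioxidant factor Nrf2, at -3.14 ± 0.36 (edgeR adjusted p of 8.95e-05), and the chemokine receptor gene cxcr4a at -3.11 ± 0.53 (adjusted p of 0.000887). The 2 higher genes were fn1a, at 1.95 ± 0.41 (adjusted p of 0.00384), and nrg1, at 1.54 ± 0.36 (adjusted p of 0.0069).

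**Figure D4:**
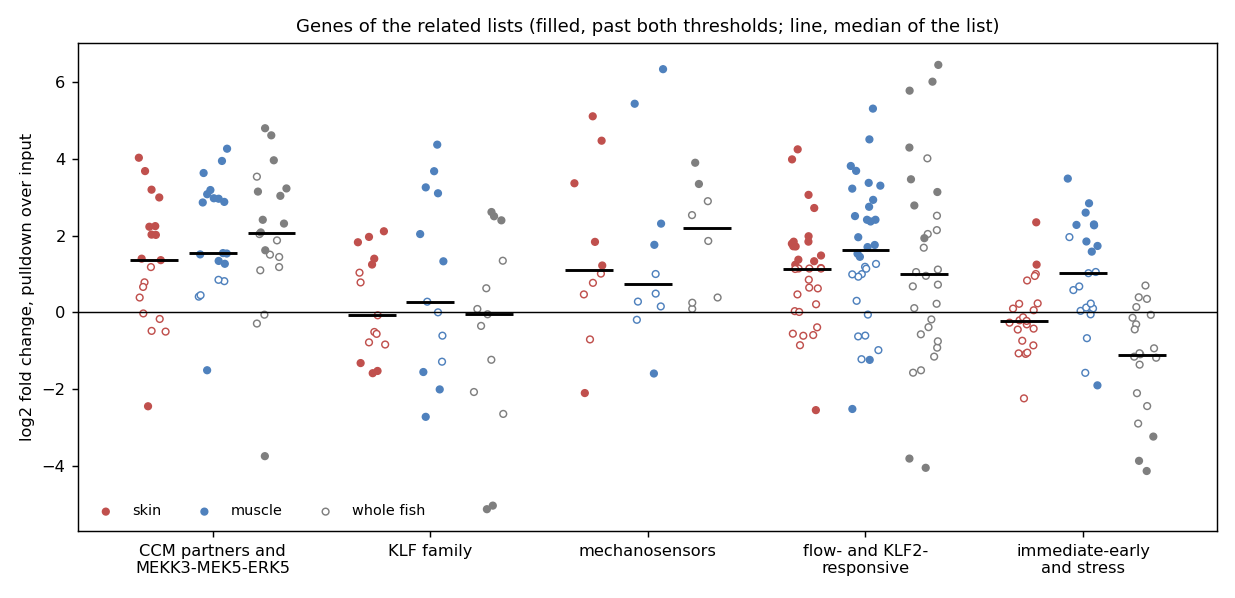
Log2 fold change of pulldown over input (vertical axis) of each tested gene of 5 lists in skin (red), muscle (blue) and whole fish (gray); filled points passed both thresholds, and a black line is the median of the list. egr2a and gadd45bb, at 0 counts in all whole fish pulldowns, are not drawn there. The immediate-early and stress genes have a median of 1.04 in muscle, above -0.21 in skin and -1.12 in whole fish.

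Immediate-early and stress genes, which respond to handling of tissue as well as to flow, were read beside klf2a and klf2b. Of 22 tested, 9 were enriched and 1 depleted in muscle, against 22.8% and 21% of all genes, 2 and none in skin, against 21.5% and 18.2%, and none and 5 in whole fish, against 11.3% and 15.5%, with medians of 1.04, -0.21 and -1.12 in the same order. jund was enriched at 2.35 ± 0.35 in skin and 2.84 ± 0.37 in muscle and had -0.44 ± 0.42 in whole fish, with an edgeR adjusted p of 0.461. fosl2 was enriched at 1.24 ± 0.20 in skin and 1.73 ± 0.49 in muscle. egr2a and gadd45bb had no counts in whole fish pulldowns, at least 5.85-fold and 18.0-fold lower than in the inputs. The summed level of the 23 genes was 2115 to 3543 CPM in muscle pulldowns, against 1401 to 1829 in muscle inputs, and 1192 to 2216 CPM in skin pulldowns, against 1035 to 1982 in skin inputs. Whole fish pulldowns had 215 to 259.8 CPM, against 475 to 723 in whole fish inputs. For skin minus muscle, 3 of the 22 were lower, against 12.4% of all genes, and none higher, against 11.4%. The median was -0.84, against 0.24 for all genes. The part of these stress genes in the KLF results was not tested. Organs were dissected, fresh or for freezing, and whole fish were frozen and ground, so handling differed between these groups. Its part in the comparisons with whole fish was not tested.

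Markers of other cells were read beside these results. Of 15 epidermal genes, 8 were depleted and 2 enriched in skin, led in level by krt91 (-2.16 ± 0.42) and krt5 (-3.22 ± 0.45), and their summed level was 8005 to 13426 CPM in skin pulldowns, against 40259 to 54235 in skin inputs. Of 14 muscle fibre genes, 7 were depleted and none enriched in muscle, led by ckmb (-4.10 ± 0.43) and ckma (-4.59 ± 0.43), at 21759.7 to 29453 CPM in muscle pulldowns, against 284828 to 411906 in muscle inputs. In skin 7 muscle fibre genes were enriched and 4 depleted, at 4095 to 8158 CPM in the pulldowns, against 7257 to 28872 in the inputs, and in muscle 4 epidermal genes were enriched and 8 depleted, at 1805 to 5712 CPM in the pulldowns, against 949 to 1558 in the inputs. Leukocyte genes were depleted in 6 and enriched in 2 of 14 in skin, with cd74a (-2.68 ± 0.33) and cd74b (-3.01 ± 0.27) the highest, at 293 to 479 CPM in skin pulldowns, against 1899 to 2894 in skin inputs. In muscle 5 of 12 were depleted and none enriched, at 181 to 474 CPM in the pulldowns, against 353 to 466 in the inputs. Of 11 mural and fibroblast genes, 6 were depleted and 1 enriched in muscle and 3 and 2 in skin, with col1a2 at -2.01 ± 0.29 in muscle and -0.82 ± 0.27 in skin and col1a1a at -0.69 ± 0.26 in skin. Erythrocyte genes were depleted in 3 of 5 in skin and 4 of 5 in muscle, hbaa1 at -2.80 ± 0.63 and -4.13 ± 0.46, and rhag was enriched in muscle at 3.37 ± 0.35 and had 0.39 ± 0.23 in skin. Of liver, heart and brain genes, 5 of 15 were depleted and none enriched in whole fish, among them apoa1b (-5.45 ± 0.53) and apoa2 (-4.78 ± 0.64). Epidermal genes stayed abundant in skin pulldowns, and their part in the skin levels of klf4 and the other genes was not tested.

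The genes whose log2 CPM followed each member most closely over the 18 libraries, among 13291 genes tested in all tissues, were named as a description, since the libraries share tissue, fraction and depth. heg1 was followed by pecam1a (Pearson r = 0.98), pdgfbb (0.97) and arhgap29a (0.97), and piezo1 by akap13 (0.98), si:ch73-138n13.1 (0.97) and pleca (0.97). klf2b was followed by PAM (0.94), SBF1 (0.94) and SNTB2 (0.93), while the closest for klf2a, creb3l3l (0.84), PIM1 (0.81) and ciarta (0.80), were less close. klf4 was followed by TSHZ2 (0.96), MOB2 (0.90) and trim35-31 (0.89), krit1 by znf839 (0.92), nop14 (0.91) and PAN3 (0.91), and ccm2 by fbxl9 (0.93), ELK1 (0.93) and UBASH3B (0.93). ENSDARG00000012591 was followed by si:ch211-191j22.3 (0.98), si:ch1073-429i10.3 (0.97) and BUD31 (0.96), and ENSDARG00000035054 by UFM1 (0.96), UFC1 (0.96) and SEC11A (0.96). No member was among the 3 closest genes of another.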

How the data were processed

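The libraries (SMART-seq V4, poly(A), no strand information) were trimmed by the authors with cutadapt and mapped by hisat2 to GRCz11 within lcdb-wf, with an Ensembl annotation. The deposited values are raw counts per gene, not normalized, and the counting program is not given in the sources used here. Of the 36 count columns, 18 were not used, since their letters do not say which of liver, heart and brain they hold.

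The test was that of edgeR 4.0.16 (R 4.3.3), after its expression filter and TMM scaling. Each tissue's 6 libraries were fitted separately and tested with the one-sided quasi-likelihood test with Benjamini-Hochberg adjustment. Differences in enrichment (12 libraries) and between pulldowns (6 libraries) were tested two-sided at an adjusted p under 0.05. Standard errors are fold changes divided by the root of the test statistic. The 95% intervals are from these with 8 or 4 residual degrees of freedom. The tests used more degrees of freedom, so the intervals are wider than the tests would give. CPM were computed with TMM library sizes over all genes, while the tests set TMM anew after the filter. Ratios of printed CPM can therefore differ from the fold changes. Likeness used log2(CPM + 0.5) and paralog ratios 0.5 added counts. Symbols came from a table of Ensembl names, with added symbol and identifier pairs for list genes. Scripts were tested on simulated data. Alternatives were library size scaling, DESeq2 1.42.0, no filter, a replicate block, a joint fit, a two-sided test with no minimum fold, and leaving out libraries; leaving out skin replicate 2, and whole fish replicate 2 or 3, was added after the data were seen.

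Replicate numbers pair pulldown and input within a tissue: deviations from the group means had a same-number correlation of 0.447 to 0.473 (skin), 0.435 to 0.481 (muscle) and 0.161 to 0.195 (whole fish), against -0.308 to -0.0787 for other numbers. The chi-square per gene between replicates was 27.3 to 326, so none was counted as a repeat of another. p-values measure the spread between 3 pooled samples per group, and counting errors come from reads without molecular identifiers. The members and lists were chosen with earlier results of these data known. Named were the 9 members, kdrl and cdh5, the up to 4 genes of each pathway list called in the most tissues with the largest mean change, the 2 marker genes with the highest mean count, and the 3 closest genes of each member. Some genes that this rule names are not reported here.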

Additional observations from a re-analysis of the deposited data

Results flagged for a closer look

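Enrichment of pulldown over input differed between tissues by the interaction test in 11 cases, given here with the log2 difference. In skin minus muscle these were klf2b (-4.30), klf2a (-3.96), the PDCD10 gene ENSDARG00000012591 (-1.78), krit1 (-1.53), klf4 (-1.30) and the PDCD10 gene ENSDARG00000035054 (-1.07). In muscle minus whole fish they were klf2b (4.47), klf2a (3.08) and ENSDARG00000035054 (1.94). ccm2, at 0 counts in whole fish pulldowns, differed in skin minus whole fish and in muscle minus whole fish, with edgeR adjusted p of 0.00791 and 0.00868 and no fold. Several of these calls were not firm. In skin minus muscle, klf4 lost its call in 6 of 12 fits that left out a library, and the joint fit kept only klf2a and klf2b. In muscle minus whole fish, klf2a and ccm2 lost their calls with the replicate block.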

How the results depend on the processing

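The whole fish results were the least firm, and their spread was also the largest. Only piezo1 kept its whole fish enrichment with the replicate block and without each single library. Library size scaling moved the median of all genes to 0.87 (skin), 1.79 (muscle) and -1.01 (whole fish), and to -0.68 for skin minus muscle, so calls are relative to TMM. Values of members that were not called turned sign most often. Shares of all genes called between tissues were not computed under these alternatives, so member counts there cannot be set against them. For pulldown against input, a count of all genes that stayed close to the main fit is not repeated. The cause of a change was not tested.

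With library size alone, log2 values were 0.36 for klf2a in skin, 1.68 for ENSDARG00000035054 in muscle, -0.39 for klf2a and -1.10 for klf2b in whole fish, -0.73 for ccm2 in skin minus muscle and 0.024 for piezo1 in muscle over whole fish pulldowns. Genes enriched and depleted were then 7094 and 783 for skin, 9249 and 485 for muscle, and 589 and 4049 for whole fish, where 1 member was enriched. Members higher were 4 in skin minus whole fish and 6 in skin over whole fish pulldowns, where the medians of all genes were 2.11 and 2.19, members lower 3 in skin over muscle and 0 in muscle over whole fish pulldowns.

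DESeq2 gave 1 member depleted in skin, 4929 genes depleted in whole fish, 1 member lower in skin minus whole fish and 2 members higher in skin over whole fish pulldowns. Without a filter on low counts, 1 member was depleted in skin, ENSDARG00000035054 in muscle was 0.12, ccm2 in skin minus muscle was -0.033, and 0 members were lower in muscle over whole fish pulldowns. The joint fit of all libraries gave 2087 genes enriched and 1388 depleted in skin, 1 member depleted there, -0.22 for klf2b and 6890 genes depleted in whole fish, 2 members lower in skin minus muscle, 1 higher and 2 lower in skin over muscle pulldowns, and 4 higher in skin over whole fish pulldowns. A two-sided test with no minimum fold gave 2 members and 4936 genes depleted in skin.

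With the replicate block, klf2b in whole fish was -0.57, and 1 member was enriched, 0 members and 909 genes depleted there. Under the block 2 members were higher in muscle minus whole fish, 0 in skin over whole fish pulldowns, and 2 higher and 0 lower in muscle over whole fish pulldowns. For the comparisons between pulldowns the block joined the same numbers of different tissues, for which no pairing is given. The medians of all genes in muscle minus whole fish, skin over whole fish pulldowns and muscle over whole fish pulldowns were 1.00, 1.00 and 0.79. In skin, in muscle and between these tissues the block changed no member's call. Without both libraries of skin replicate 2, klf2b was -0.06 and ccm2 -0.24. Without those of whole fish replicate 2, klf2b was -1.47, with 1 member enriched, 1 depleted and 1185 genes enriched, and krit1 was 3.26. Without those of replicate 3, klf2a was -0.068 and krit1 -0.51, with 0 members and 431 genes enriched.

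Leaving out 1 library at a time gave, in skin, -1.27 to 0.46 for klf2a, -0.13 to 0.51 for klf2b, -0.38 to 0.44 for ccm2 and 0 to 1 members depleted. In muscle it gave -0.033 to 0.46 for ccm2 and -0.15 to 0.12 for ENSDARG00000035054. In whole fish it gave 0.017 to 1.12 for klf2a, -1.46 to 0.68 for klf2b, -0.72 to 3.25 for krit1, 1 to 3 members enriched, 1 to 3 depleted, 792 to 2393 genes enriched, 1548 to 4725 depleted and -0.55 to 1.06 for the PDCD10 ratio. Between tissues it gave -0.52 to 0.32 for ccm2 in skin minus muscle, 2 to 5 members higher in muscle minus whole fish, 1 to 3 higher and 0 to 1 lower in skin minus whole fish, 1 to 5 higher and 0 to 1 lower in muscle over whole fish pulldowns, and 0 to 3 higher in skin over whole fish pulldowns.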
